A study of Mus musculus with 6 samples.

Results

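The genes described here encode the protein parts of lipoprotein particles, the enzymes carried on high-density lipoprotein (HDL), and the receptor and transporter through which cells exchange cholesterol with it. They were chosen by symbol from a list of 10 names: the apolipoprotein genes Apoc1, Apoe, Apoa1, Apob and Apod, the paraoxonase genes Pon1, Pon2 and Pon3, the HDL receptor gene Scarb1 and the cholesterol exporter gene Abca1. Of these, 8 had a row among the 16454 genes of the table, and Apob and Apod were not measured in it. The names were put together with results of the same comparison in view, so the differences between lineages given below for these 8 genes describe them and are no independent test.

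RNA was sequenced from whole ovaries of CD1 mice, an outbred stock, taken at postnatal day 21 in generation F3. The DEHP lineage (3 ovaries) descended from F0 dams given DEHP, the phthalate plasticizer di(2-ethylhexyl) phthalate, at 20 µg/kg/day. The control lineage (3 ovaries) descended from F0 dams given the vehicle, a corn oil stripped of tocopherol. The ovaries were profiled one by one, and the labels do not say how many litters or founding dams they came from, so errors and p-values cover only how far these ovaries spread.

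The values were log2 CPM, the log2 of a gene's reads scaled to a common library total, from which the authors had removed a surrogate variable, an estimated nuisance direction across samples. The summed CPM was 986086 to 996719 in the DEHP lineage and 979868 to 1026735 in the control lineage (read depth: unknown). The removed direction weighed most on DEHP-lineage replicates 1 (-0.60) and 3 (0.75), with opposite signs. Its removal therefore took out difference between these 2 ovaries. They correlated at 0.998 across genes afterwards, against 0.978 to 0.989 for the other pairs. This closeness, and the SDs and ranges of the DEHP lineage given below, hold for the values after removal and not for the ovaries as sequenced. Markers of the ovary were high: of 12 granulosa cell markers 11 were listed, with a summed level of 10070 to 11240 CPM in the DEHP lineage and 8570 to 9985 CPM in the control lineage. In whole ovaries, fewer cells of a type and less RNA per cell cannot be told apart.

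Lipoproteins carry cholesterol and other lipids through blood and tissue fluid. Apolipoproteins hold the particles together and are bound by receptors and enzymes. The ovary draws on HDL as a source of cholesterol for steroid synthesis, chiefly through the receptor SR-BI, the product of Scarb1, and HDL is the main lipoprotein of follicular fluid. ABCA1 works in the other direction and loads cellular cholesterol and phospholipid onto apolipoprotein A-I, while the paraoxonases PON1 and PON3 travel on HDL and hydrolyse lactones and oxidized lipids, and PON2 stays inside cells.

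Apoc1 and Pon1 were higher in every DEHP-lineage ovary than in any control-lineage ovary, Abca1 was lower in every one, and the other 5 genes overlapped between the lineages. A lack of overlap was found for 22.9% of all genes, 10.8% higher and 12.2% lower in the DEHP lineage. Apoc1 stood 30th and Pon1 8th from the top when the 16454 genes were ordered by log2 fold change, and these 2 were the only ones of the 8 at a log2 fold change of 1 or more, as were 1.34% of all genes. The place of Pon1 rests on control values at the bottom of the table and so on the constant added before logs. None of the 8 genes (0) passed an adjusted p of 0.05 in the test across all genes (limma with Benjamini-Hochberg adjustment), where 7 genes (0.0425%) did, 4 higher (0.0243%) and 3 lower (0.0182%). An unadjusted p under 0.05 was found for 3 of the 8 genes and for 8.78% of all genes, 2 of the 3 higher (4.76% of all genes) and 1 lower (4.02%). That test counted the direction removed by the authors and had 3 residual degrees of freedom. With 4, which leaves the removal uncounted and makes the errors too small, 20 genes (0.122%) passed, 11 of them higher (0.0669%) and 9 lower (0.0547%), and Apoc1 and Pon1 were among them.

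**Figure D1:**
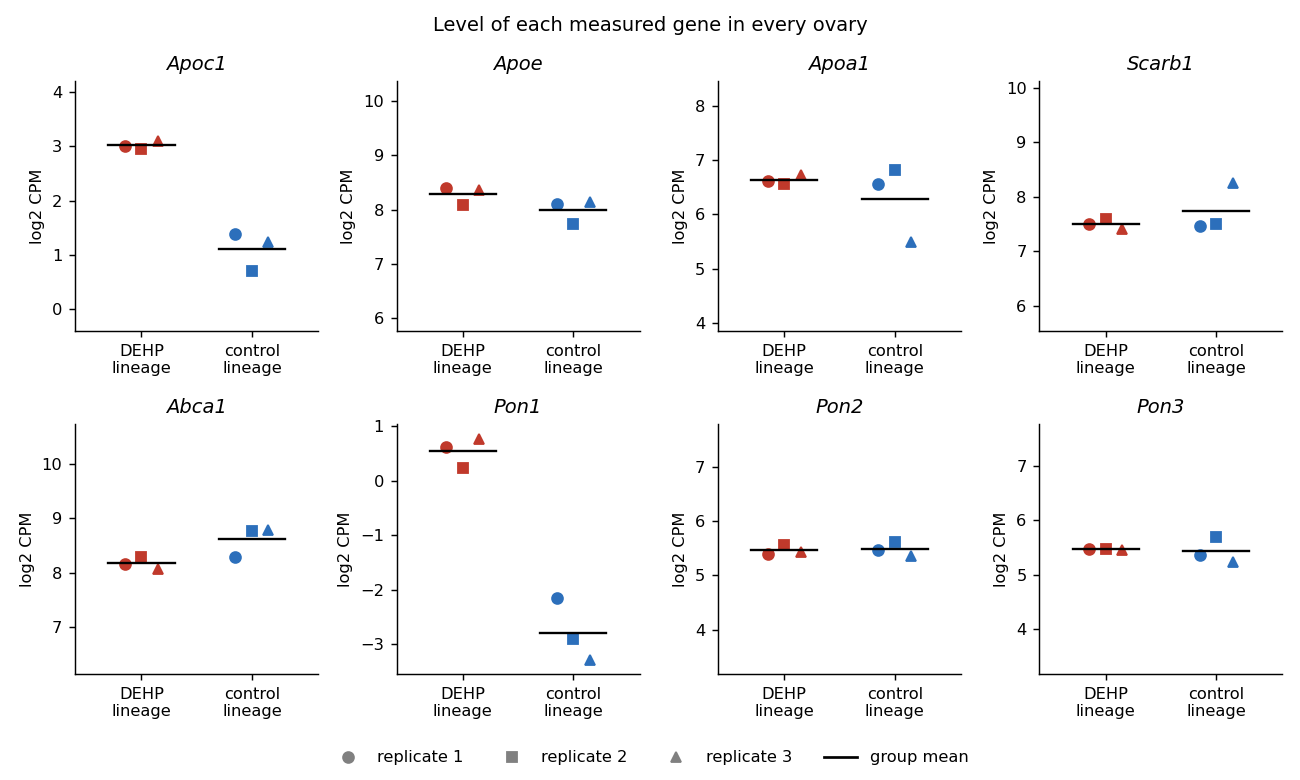
Log2 CPM of the 8 measured genes in the 3 ovaries of the DEHP lineage (left, red) and the 3 of the control lineage (right, blue), each panel spanning 4.6 log2 units, with group means as lines and replicate numbers as symbols. Apoc1 and Pon1 lie apart between the lineages by 1.91 and 3.33 on average, and Abca1 by -0.44, while control replicate 3 lies away from the other controls for Apoa1 and Scarb1.

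Apoc1 encodes apolipoprotein C-I, a small exchangeable apolipoprotein of HDL and triglyceride-rich particles that hinders receptor uptake and lipoprotein lipase. The gene lies on chromosome 7 (GRCm38.p6, chr7:19689480-19692659, minus strand) just beyond Apoe. Apoc1 was at 8.06, 7.67 and 8.54 CPM in DEHP-lineage replicates 1, 2 and 3, against 2.62, 1.62 and 2.35 CPM in control-lineage replicates 1, 2 and 3. The DEHP-lineage values lay within 0.156 log2 units of each other, and the lowest of them was above the highest control. The means were 8.09 ± 0.439 CPM in the DEHP lineage and 2.20 ± 0.515 CPM in the control lineage (SD, n = 3 each), and the difference of mean log2 CPM was 1.91 (SE 0.238, 95% interval 1.35 to 2.47), which corresponds to a 3.75-fold higher level. The adjusted p over all genes was 0.13 by limma, and it ran from 0.0427 to 0.307 over 14 other settings. In the authors' deposited table, Apoc1 had a log2 fold change of 1.87 and an adjusted p of 0.121. None (0%) of its 31-base words occurred in another annotated gene, so its reads have no near-identical copy to be split with.

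Apoe encodes apolipoprotein E, the ligand of the LDL receptor family, which macrophages, theca cells and other cells of the ovary secrete. It is the upstream neighbour of Apoc1 (chr7:19696244-19701310). Apoe was at 336, 272 and 330 CPM in DEHP-lineage replicates 1 to 3, against 274, 214 and 284 CPM in the control ovaries. DEHP-lineage replicate 2 lay within the control range and replicates 1 and 3 above it. The log2 difference was 0.29 (95% interval -0.03 to 0.61). Set against the sum of the 2 genes, Apoc1 made up 2.34%, 2.74% and 2.53% in the DEHP ovaries, against 0.945%, 0.755% and 0.823% in the control ovaries. Since Apoe differed little by comparison, these shares restate the Apoc1 values above and are no second result.

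The other neighbours on chromosome 7 belong to a cluster whose genes are known in human to share control regions active in the liver. Apoc4, whose product is a minor apolipoprotein of very-low-density lipoprotein, was at 1.53, 0.595 and 1.18 CPM in the DEHP ovaries, against 0.308, 0.281 and 0.557 CPM in the control ovaries, and its log2 difference was 1.49 (95% interval 0.34 to 2.64, adjusted p 0.491 by limma). The lineages did not overlap for Apoc4, though DEHP replicate 2 and control replicate 3 were close. Tomm40, a mitochondrial import gene on the far side of Apoe, was at 57.4 to 59.4 CPM in the DEHP lineage and 54.3 to 67.9 CPM in the control lineage, a log2 difference of -0.03 (-0.26 to 0.21). Apoc2, the activator of lipoprotein lipase, had no row in the table.

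Apoa1 encodes the main structural protein of HDL (chr9:46228630-46230469). It was at 97.7, 94.5 and 105 CPM in the DEHP ovaries, against 94.7, 112 and 45.1 CPM in the control ovaries. Of the 6 ovaries, 5 lay between 94.5 and 112 CPM, and control replicate 3 stood apart at a level below all of them. The log2 difference was 0.34 (95% interval -0.38 to 1.06), and it was -0.06 without control replicate 3. Of its neighbours on chromosome 9, Apoc3, an inhibitor of lipoprotein lipase, was at 9.81, 4.12 and 7.77 CPM in the DEHP ovaries, against 3.35, 4.02 and 4.43 CPM in the control ovaries, with a log2 difference of 0.80 (0.02 to 1.58, adjusted p 0.565 by limma). DEHP replicate 2 was within the control range for Apoc3. Apoa4, an apolipoprotein of intestinal particles, was at 365 to 497 CPM in the DEHP lineage and 394 to 437 CPM in the control lineage, but 64.54% of its 31-base words occurred in other annotated genes, so its own level is uncertain.

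**Figure D2:**
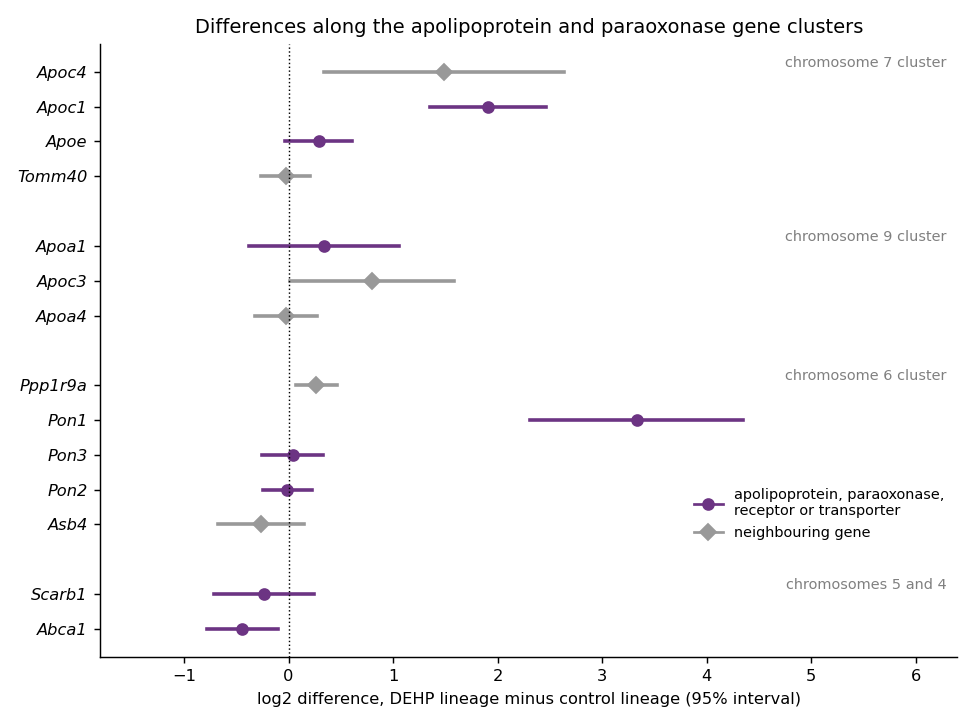
Log2 difference in mean log2 CPM, DEHP lineage minus control lineage, with 95% intervals from limma, for the 8 measured genes (purple circles) and their listed neighbours (grey diamonds), in chromosomal order within each cluster. In the chromosome 6 cluster Pon1 stands at 3.33 beside Pon3 at 0.04 and Pon2 at -0.01, and in the chromosome 7 cluster Apoc1 (1.91) and Apoc4 (1.49) stand apart from Apoe (0.29) and Tomm40 (-0.03).

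The 3 paraoxonase genes lie side by side on the minus strand of chromosome 6, in the order Pon1 (chr6:5168090-5193987), Pon3 (chr6:5216256-5256285) and Pon2 (chr6:5264620-5298345). Their promoters are shown because the neighbours were at very different levels and Pon1 alone of the 3 had lineages that did not overlap. Each line holds the 250 bases before and 50 bases after the start of transcription in RefSeq's annotation of GRCm38.p6, and capitals mark matches, on either strand, to 5 motifs: the GC box, the CCAAT box, the TATA box, the E-box and the nuclear receptor core motif.
Pon1 (chr6:5193897-5194196, minus strand): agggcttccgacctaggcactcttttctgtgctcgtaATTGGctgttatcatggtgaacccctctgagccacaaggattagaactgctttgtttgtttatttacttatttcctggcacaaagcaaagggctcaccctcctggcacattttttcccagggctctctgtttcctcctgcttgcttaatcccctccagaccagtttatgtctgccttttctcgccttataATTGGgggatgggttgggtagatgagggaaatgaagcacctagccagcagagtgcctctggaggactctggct
Pon3 (chr6:5256184-5256483, minus strand): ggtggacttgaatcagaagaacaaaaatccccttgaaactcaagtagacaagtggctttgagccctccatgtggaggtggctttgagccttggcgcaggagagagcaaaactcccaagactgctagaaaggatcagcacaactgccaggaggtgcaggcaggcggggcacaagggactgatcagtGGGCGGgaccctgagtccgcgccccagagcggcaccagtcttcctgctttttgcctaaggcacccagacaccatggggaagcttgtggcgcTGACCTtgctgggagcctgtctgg
Pon2 (chr6:5298291-5298590, minus strand): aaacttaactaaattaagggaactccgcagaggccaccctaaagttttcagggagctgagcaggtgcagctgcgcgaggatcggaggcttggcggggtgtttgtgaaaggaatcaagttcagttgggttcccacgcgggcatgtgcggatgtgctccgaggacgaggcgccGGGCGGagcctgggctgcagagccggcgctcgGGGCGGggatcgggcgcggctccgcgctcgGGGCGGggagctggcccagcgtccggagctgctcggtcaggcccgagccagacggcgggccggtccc

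The Pon1 window held 2 CCAAT matches and 0 GC boxes, the Pon3 window 1 GC box and 1 nuclear receptor core motif, and the Pon2 window 3 GC boxes. The GC box, searched as GGGCGG, was found in 35.7% of the 32851 promoters of the reference table. The letters CCAAT were found in 37.4% of these promoters, and the nuclear receptor core motif, searched as AGGTCA, in 16.3% of them. None of the 3 windows held the TATA box, searched as TATAAA and found in 13.6% of promoters. Neither did they hold the E-box, searched as CACGTG and found in 7.15% of promoters. The matches in these windows did not overlap each other. The windows held 3 CpG dinucleotides in Pon1, 7 in Pon3 and 31 in Pon2, against a median of 7 over all promoters. The Pon2 window was thus at percentile 90.0 in CpG number and the Pon1 window at percentile 27.3. These letters describe the windows and say nothing of what binds them.

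Pon1 encodes the serum paraoxonase that the liver secretes onto HDL. Pon1 was at 1.53, 1.17 and 1.71 CPM in the DEHP ovaries, against 0.223, 0.132 and 0.102 CPM in the control ovaries. Every DEHP value was above every control value. The control values sat at the bottom of the table: 40, 19 and 0 of the 16454 genes were lower than Pon1 in control replicates 1, 2 and 3, so that in control replicate 3 it was the lowest gene of all, while 2847, 2173 and 2998 genes were lower in the DEHP ovaries. The means were 1.47 ± 0.275 CPM in the DEHP lineage and 0.153 ± 0.0632 CPM in the control lineage (SD, n = 3 each), and the log2 difference was 3.33 (SE 0.434, 95% interval 2.31 to 4.35; adjusted p 0.141 by limma, 0.0407 to 0.307 over 13 other settings).

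At such levels the size of the Pon1 difference depends on the constant that the authors added before taking logs, and no source used here gives it. On a log2(CPM + 1) scale it was 1.10, against 3.33 on the deposited scale. In the authors' deposited table, Pon1 had a log2 fold change of 3.16 and an adjusted p of 0.255.

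Pon2 and Pon3 were at similar levels in both lineages. Pon2, a paraoxonase of cell membranes, was at 42.3, 47.4 and 43.3 CPM in the DEHP ovaries, against 44.5, 48.9 and 40.7 CPM in the control ovaries, a log2 difference of -0.01 (95% interval -0.24 to 0.22). Its direction is not defined, since it changed sign under 6 of 14 settings, and 14.01% of its 31-base words occurred in other genes, most of them in an opposite-strand gene model (Gm44424) within it. Pon3, the other HDL-borne paraoxonase, was at 44.7, 44.4 and 43.9 CPM in the DEHP ovaries, against 41.0, 51.8 and 37.7 CPM in the control ovaries. The log2 difference was 0.04 (-0.25 to 0.33) and was -0.06 without control replicate 3.

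Pon1 therefore contributed little to the paraoxonase reads of either lineage. It made up 1.73%, 1.26% and 1.93% of the summed Pon1, Pon2 and Pon3 CPM in the DEHP ovaries, against 0.261%, 0.131% and 0.130% in the control ovaries. The sum was 88.4, 93.1 and 89.0 CPM in the DEHP ovaries, against 85.7, 101 and 78.6 CPM in the control ovaries, and the lineages overlapped. The genes that flank the cluster were at 150 to 165 CPM in the DEHP lineage and 119 to 139 CPM in the control lineage for Ppp1r9a, a neuronal actin scaffold gene, with a log2 difference of 0.27 (0.07 to 0.46, adjusted p 0.491 by limma), and at 30.8 to 32.7 CPM in the DEHP lineage and 29.0 to 47.8 CPM in the control lineage for Asb4, a ubiquitin ligase adaptor gene.

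Scarb1 encodes SR-BI, the receptor that takes cholesterol esters from HDL into steroid-forming cells (chr5:125277087-125341094). It was at 181, 194 and 170 CPM in the DEHP ovaries, against 177, 181 and 305 CPM in the control ovaries. The 3 DEHP ovaries and 2 of the controls lay within 170 to 194 CPM, and control replicate 3 was above them. The log2 difference was -0.24 (95% interval -0.72 to 0.24), and it was 0.02 without control replicate 3. A gene model of its own strand (Gm42633) lies within Scarb1 over 2764 bases, and 0.94% of the 31-base words of Scarb1 occurred in other genes. Control replicate 3 also had the highest level of Cyp11a1, the enzyme that starts steroid synthesis from cholesterol, at 341 CPM, against 169 to 175 CPM in the DEHP ovaries and 99.3 and 173 CPM in the other 2 controls. Other theca and interstitial markers differed in this. Of the 2 highest, Ptch1 was also highest in control replicate 3 (399 CPM), while Hsd3b1 was the lowest of the controls there (2090 CPM). Cyp17a1, Gli1, Mgarp and Fdx1 were highest in control replicate 3 as well. Lhcgr, Star, Insl3, Nr5a1 and Hsd3b1 were highest in control replicate 2, and Aldh1a1 in DEHP replicate 1. The summed level of the 12 markers was highest in control replicate 2 (4051 CPM, against 3660 CPM in control replicate 3). Most of that sum was Hsd3b1 (2777 CPM in control replicate 2 and 2090 CPM in control replicate 3), so it mainly follows this gene. Whether the levels of Scarb1 and Apoa1 in control replicate 3 share a source with that of Cyp11a1 was not tested.

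Abca1 encodes the transporter that exports cholesterol to apolipoprotein A-I (chr4:53030789-53159988). Abca1 was at 288, 314 and 269 CPM in the DEHP ovaries, against 315, 436 and 443 CPM in the control ovaries. All DEHP values were below all control values, but DEHP replicate 2 and control replicate 1 lay side by side. The means were 290 ± 22.2 CPM in the DEHP lineage and 398 ± 72.0 CPM in the control lineage (SD, n = 3 each). The log2 difference was -0.44 (SE 0.144, 95% interval -0.78 to -0.10; adjusted p 0.491 by limma). Leaving out 1 ovary at a time gave -0.60 to -0.36, the first of these without control replicate 1. The promoter is printed because Abca1 was the only one of the 8 genes with all DEHP values below all controls, and capitals mark the same motifs as above.
Abca1 (chr4:53159846-53160145, minus strand): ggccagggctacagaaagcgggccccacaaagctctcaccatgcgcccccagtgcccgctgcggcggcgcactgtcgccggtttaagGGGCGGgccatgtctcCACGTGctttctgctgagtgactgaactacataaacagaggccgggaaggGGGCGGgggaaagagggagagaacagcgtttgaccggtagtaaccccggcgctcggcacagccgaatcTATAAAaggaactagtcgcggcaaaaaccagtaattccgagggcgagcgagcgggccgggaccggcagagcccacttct

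The Abca1 window held 2 GC boxes, 1 E-box and 1 TATA box, and 26 CpG dinucleotides, which put it at percentile 83.8 of all promoters.

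Levels of different genes were compared per kilobase of exon, as CPM per kb, with exon lengths from GENCODE's annotation of the same genome. In the DEHP lineage the order was Apoe (146 ± 16.5 CPM per kb), Apoa1 (80.3 ± 4.53), Abca1 (28.0 ± 2.14), Scarb1 (21.4 ± 1.43), Pon3 (13.1 ± 0.108), Apoc1 (10.9 ± 0.59), Pon2 (6.04 ± 0.373) and Pon1 (0.508 ± 0.0949; SD, n = 3 each), and no neighbours in this order overlapped. In the control lineage Apoe was at 120 ± 17.8 CPM per kb, Apoa1 at 67.9 ± 28.1, Abca1 at 38.4 ± 6.95, Scarb1 at 26.0 ± 8.54, Pon3 at 12.85 ± 2.17, Pon2 at 6.09 ± 0.555, Apoc1 at 2.95 ± 0.692 and Pon1 at 0.0527 ± 0.0218 (SD, n = 3 each). There Apoa1 overlapped with Abca1, and Abca1 with Scarb1. Apoc1 and Pon2 held places 6 and 7 in the DEHP lineage, and Pon2 came before Apoc1 in the control lineage. The median over the 15480 genes with an exon length was 5.92 CPM per kb, so Apoe and Apoa1 were among the more abundant transcripts of these ovaries (percentiles 98.6 and 97.0) and Pon1 among the rarer ones (percentile 7.0).

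**Figure D3:**
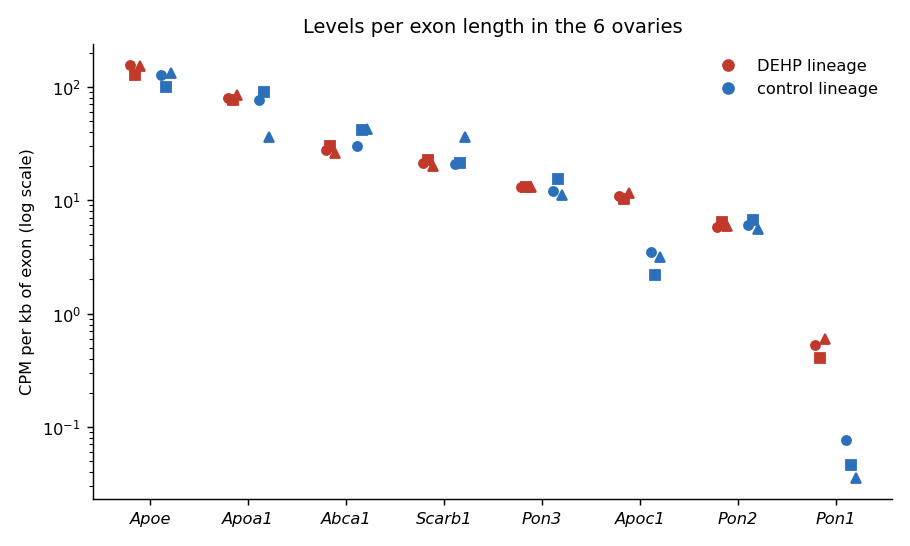
CPM per kb of exon, on a log axis, of the 8 measured genes in each ovary of the DEHP lineage (red, left of each pair) and the control lineage (blue, right), ordered by the mean of the 6 ovaries. Apoe leads at 146 and 120 CPM per kb on average in the DEHP and control lineages and Pon1 is last at 0.508 and 0.0527, while Apoc1 moves across Pon2 between the lineages.

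The liver expresses the apolipoprotein and paraoxonase genes described here, Apoa1 and Apoe, whose lineages overlapped, as well as Apoc1 and Pon1, so hepatocyte markers were examined in the same libraries. Of 20 hepatocyte markers 6 were listed, all 6 with a higher mean in the DEHP lineage, and their median log2 fold change was 2.07 against -0.01 for all genes. None (0) passed over all genes, and 4 of the 6 (66.7%) had an unadjusted p under 0.05, against 8.78% of all genes. Their summed level was 64.8 to 82.7 CPM in the DEHP lineage and 27.0 to 30.5 CPM in the control lineage. Albumin (Alb), transthyretin (Ttr) and the fibrinogen genes Fga, Fgb and Fgg had no row in the table. Rbp4, the retinol carrier, which held most of the control sum, was at 20.5 to 22.5 CPM in the DEHP lineage and 20.2 to 21.1 CPM in the control lineage.

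The remaining 5 hepatocyte markers differed more among the DEHP ovaries, and 4 of them, all but Cyp2e1, are named after their values were seen. Ahsg, fetuin-A, was at 31.5, 1.93 and 14.6 CPM in the DEHP ovaries, against 0.47, 1.00 and 1.13 CPM in the control ovaries. Serpina1b, an antitrypsin gene with close paralogues, was at 7.16, 1.07 and 5.29 CPM in the DEHP ovaries, against 0.469, 0.277 and 0.401 CPM in the control ovaries. Both were above every control in all DEHP ovaries, high in replicates 1 and 3 and lower in replicate 2. That order of the DEHP ovaries was also seen in Apoc4 and Apoc3. Itih3 and Vtn, plasma protein genes with that order too, had log2 differences of 1.19 (95% interval 0.16 to 2.22) and 0.97 (-0.48 to 2.42). Cyp2e1, a cytochrome P450 of liver and fat, was at 9.84, 50.1 and 13.8 CPM in the DEHP ovaries, against 2.53, 2.27 and 2.58 CPM in the control ovaries, and was thus highest in replicate 2. For Apoc1 and Pon1 replicate 2 was the lowest DEHP ovary too. Replicate 3 was the highest for them and replicate 1 for Ahsg and Serpina1b. The DEHP values of Apoc1 were at 7.67 to 8.54 CPM. The order of replicates 1 and 3 and the closeness of DEHP values hold only after the authors' removal, which weighed most on these ovaries. The part of liver-expressed transcripts in the levels of Apoc1 and Pon1 was not tested.

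**Figure D4:**
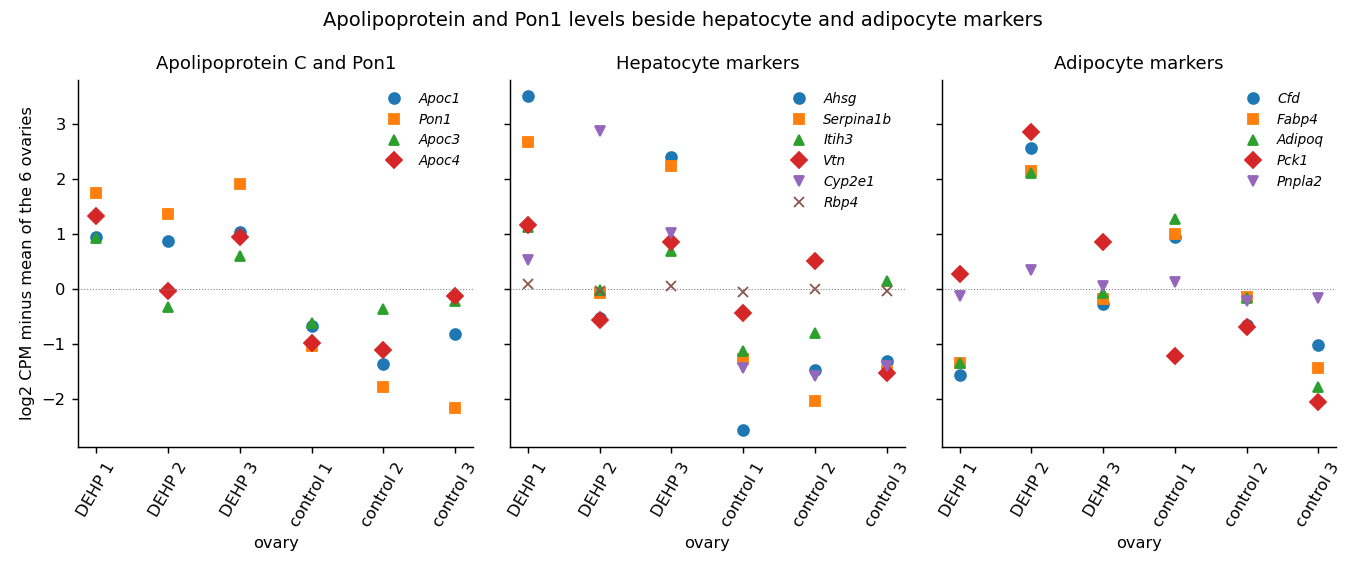
Log2 CPM minus the mean of the 6 ovaries for Apoc1, Pon1 and the neighbouring apolipoprotein C genes (left), the 6 listed hepatocyte markers (middle) and 5 of the 10 listed adipocyte markers (right), by ovary. Ahsg and Serpina1b are high in DEHP replicates 1 and 3, and Cyp2e1 and the fat markers shown peak in DEHP replicate 2. Plin1 and Lep, not shown, had a lower mean in the DEHP lineage and were highest in control replicate 1. The 3 DEHP ovaries span 0.156 log2 units for Apoc1 and 0.547 for Pon1.

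Fat, macrophages and steroid-forming cells also express genes of this group. Of 12 adipocyte markers 10 were listed, with a summed level of 101, 612 and 162 CPM in the DEHP ovaries, against 290, 150 and 108 CPM in the control ovaries. The sum was thus highest in DEHP replicate 2 and lowest in DEHP replicate 1. The part of fat in the levels of Apoc1 and Pon1 was not tested. Of the highest markers, Cfd, adipsin, was at 12.4, 217 and 30.2 CPM in the DEHP ovaries, against 70.6, 23.1 and 18.1 CPM in the control ovaries, and Pnpla2, a triglyceride lipase gene, was at 45.3 to 62.4 CPM in the DEHP lineage and 42.5 to 53.9 CPM in the control lineage. A higher mean in the DEHP lineage was found for 8 of the 10 adipocyte markers and a lower one for 2 (median log2 fold change 0.47). Pck1, the gluconeogenic enzyme gene of fat, liver and kidney, was named after its values were seen. Pck1 was at 7.02 to 42.2 CPM in the DEHP lineage and 1.39 to 3.58 CPM in the control lineage (log2 difference 2.65). It was the only 1 of the 10 that did not overlap, against 22.9% of all genes. The 2 lower markers were Plin1 (log2 difference -0.69) and Lep (-0.63), and both overlapped. An unadjusted p under 0.05 by limma was found for Pck1 and, in the other direction, for Plin1 (20.0% of the 10, against 8.78% of all genes). Of 15 macrophage markers 13 were listed, with a sum of 128 to 153 CPM in the DEHP lineage and 70.6 to 167 CPM in the control lineage, lowest in control replicate 2, which also had the lowest Apoc1 and Apoe. The highest macrophage markers were Lyz2, lysozyme (26.9 to 40.5 CPM in the DEHP lineage and 10.53 to 36.6 CPM in the control lineage), and the mannose receptor gene Mrc1 (17.4 to 18.9 and 14.5 to 23.9 CPM, in the same order). Of the 13 macrophage markers, 8 had a higher mean in the DEHP lineage and 5 a lower one, with a median log2 fold change of 0.055. Gpnmb, a glycoprotein gene of lipid-laden macrophages, named after its values were seen, was at 16.01, 25.2 and 19.4 CPM in the DEHP ovaries, against 7.94, 2.39 and 10.1 CPM in the control ovaries (log2 difference 1.78). It was the only 1 of the 13 that did not overlap (7.69%, against 22.9% of all genes). Of 12 theca and interstitial markers all 12 were listed, 11 of them with a lower mean in the DEHP lineage (median log2 fold change -0.29), and their sum was 3115 to 3234 CPM in the DEHP lineage and 3301 to 4051 CPM in the control lineage, most of it from Hsd3b1, a steroid dehydrogenase gene. No gene of these 3 lists (0) passed over all genes. The part of these cell types in the levels of the 8 genes was not tested.

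For other cell types, the median log2 fold change was 0.12 over 8 luteal, 0.16 over 11 granulosa, 0.14 over 12 stromal fibroblast, -0.13 over 9 blood endothelial, -0.31 over 10 smooth muscle, 0.003 over 11 surface epithelial and 0.53 over 7 oviduct markers, with 0 genes called in each list. All 10 smooth muscle markers had a lower mean in the DEHP lineage, 5 of them with an unadjusted p under 0.05 (50%, against 8.78% of all genes) and 5 with no overlap (50%, against 22.9%), and their sum was 2107 to 2450 CPM in the DEHP lineage and 2583 to 2923 CPM in the control lineage. Abca1 was lower as well, and the part of smooth muscle in its level was not tested. All 7 oviduct markers had a higher mean in the DEHP lineage, 0 with an unadjusted p under 0.05 and 2 with no overlap (28.6%, against 22.9%). Of 8 kidney and adrenal markers 1 was listed, Lrp2, which is described below.

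The other genes of lipoprotein and cholesterol transport were taken from 5 lists of 100 names, of which 77 were listed. None of them (0) passed over all genes, by limma with 3 residual degrees of freedom or with 4. An unadjusted p under 0.05 was found for 8 of the 77 (10.4%, against 8.78% of all genes), 6 of them higher and 2 lower, and 19 (24.7%) did not overlap between the lineages, against 22.9% of all genes. The median log2 fold change was 0.02 over the 77 genes and -0.01 over all genes.

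Among other apolipoproteins, 11 of 23 were listed. An unadjusted p under 0.05 by limma was found for 2 (18.2%, against 8.78% of all genes), Apoc4 and Apoc3, described above. Apoo, a mitochondrial inner membrane protein of the family, was at 3.48 to 4.41 CPM in the DEHP lineage and 2.61 to 3.14 CPM in the control lineage. Clu, clusterin or apolipoprotein J, the most abundant of the list by reads, was at 644 to 712 CPM in the DEHP lineage and 491 to 683 CPM in the control lineage, a log2 difference of 0.19 (95% interval -0.13 to 0.50).

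Of genes for lipases and for the remodelling and assembly of particles, 12 of 15 were listed. Creb3l3, a liver and gut transcription factor that drives apolipoprotein genes, was at 15.1, 16.8 and 16.1 CPM in the DEHP ovaries, against 13.4, 11.6 and 11.2 CPM in the control ovaries (log2 difference 0.41, interval 0.10 to 0.71, adjusted p 0.491 by limma). Lcat, which esterifies cholesterol on HDL, was at 4.54, 1.93 and 3.58 CPM in the DEHP ovaries, against 1.86, 2.44 and 2.39 CPM in the control ovaries, and overlapped. The general folding enzymes Pdia3 and P4hb differed by 0.07 (-0.23 to 0.36) and -0.10 (-0.34 to 0.14).

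Of receptors and uptake genes, 24 of 27 were listed. Sorl1, a sorting receptor of the LDL receptor family, was at 35.8, 40.2 and 38.6 CPM in the DEHP ovaries, against 57.4, 52.1 and 42.7 CPM in the control ovaries (log2 difference -0.40, interval -0.69 to -0.11, adjusted p 0.491 by limma). Msr1, the macrophage scavenger receptor, was at 2.97 to 3.36 CPM in the DEHP lineage and 0.822 to 2.13 CPM in the control lineage. Lrp2, megalin, was at 1.78 to 2.25 CPM in the DEHP lineage and 2.33 to 5.81 CPM in the control lineage. The abundant endocytic receptor gene Lrp1 differed by 0.21 (-0.08 to 0.50) and its adaptor Dab2 by 0.06 (-0.17 to 0.28).

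Of genes for efflux and for the liver X receptors, which switch on Abca1 and Apoe when oxysterols accumulate, 12 of 15 were listed. All 12 had a higher mean in the DEHP lineage, some by very little (Cyp46a1 by 0.006), with a median log2 fold change of 0.12. Abca1, described above and not in this list, had a lower mean (log2 difference -0.44). An unadjusted p under 0.05 by limma was found for 1 of the 12 (8.33%, against 8.78% of all genes). Groups did not overlap for 3 of them (25.0%, against 22.9%). Of all genes, 46.9% had a higher mean in the DEHP lineage. Cyp27a1, which makes the liver X receptor ligand 27-hydroxycholesterol, was at 11.4, 11.9 and 12.0 CPM in the DEHP ovaries, against 9.07, 8.31 and 7.18 CPM in the control ovaries (log2 difference 0.53, interval 0.18 to 0.88, adjusted p 0.455 by limma). The corepressor gene Ncor1 differed by 0.01 (-0.18 to 0.20) and the transporter gene Abca2 by 0.12 (-0.04 to 0.27).

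Of genes for cholesterol esters and lysosomal cholesterol, 18 of 20 were listed. Nceh1, a cholesterol ester hydrolase, was at 66.0, 79.7 and 68.9 CPM in the DEHP ovaries, against 97.7, 109 and 85.9 CPM in the control ovaries (log2 difference -0.45, interval -0.72 to -0.18, adjusted p 0.42 by limma). Stard4, a carrier of cholesterol in the cytosol, was at 26.3 to 30.7 CPM in the DEHP lineage and 29.5 to 43.7 CPM in the control lineage. Ces1f, a carboxylesterase gene of liver and fat with close paralogues, was at 0.642, 2.93 and 1.18 CPM in the DEHP ovaries, against 0.799, 0.276 and 0.216 CPM in the control ovaries. It peaked in the same ovary as most fat markers. Soat1, which forms cholesterol esters, differed by -0.13 (-0.47 to 0.21) and Npc2, a lysosomal cholesterol carrier, by -0.09 (-0.26 to 0.09).

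The genes whose pattern over the 6 ovaries was most like those of Apoc1 and Pon1 were looked up among 12286 and 12287 genes with a mean log2 CPM of at least 1, by Pearson's r, as a description. For Apoc1 they were Cc2d1a, an endosomal sorting gene (r = 0.998), Igfbp4, a binding protein of insulin-like growth factors (0.998), the neuroligin gene Nlgn1 (0.995) and the cilium gene Mks1 (0.994). Their log2 differences were 0.19, 0.34, 0.67 and 0.34, all smaller than that of Apoc1. For Pon1 they were the Tcl1 family gene Tcl1b1 (r = 1.00), the ubiquitin ligase gene Rnf25 (0.999), the neutrophil adaptor gene Pram1 (0.995) and the sorting nexin gene Snx8 (0.994), with log2 differences of 0.14, 0.18, 1.18 and 0.24. Over so few ovaries r was above 0.95 for 85 genes with Apoc1 and 101 genes with Pon1.

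**Figure D5:**
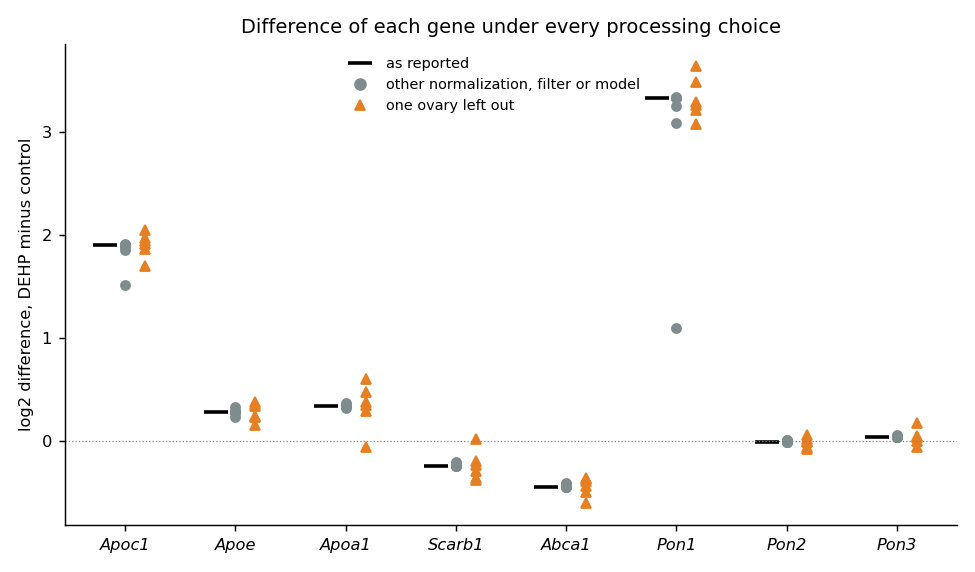
Log2 difference, DEHP lineage minus control lineage, of the 8 measured genes as reported (black line), under 8 other normalizations, filters and models (grey circles) and with each of the 6 ovaries left out (orange triangles). Apoc1 stays between 1.52 and 2.05 and Abca1 between -0.60 and -0.36, Pon1 drops to 1.10 on the log2(CPM + 1) scale, and Apoa1, Scarb1 and Pon3 change sign without control replicate 3.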

How the data were processed

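Messenger RNA libraries of 6 whole ovaries, made with a strand-marking kit, were sequenced from one end, per the labels' protocols. The submitters' processing notes name Trimmomatic 0.36, STAR 2.5.3a, featureCounts of Subread 1.5.2, edgeR 3.20.5 and the build GRCm38.p6, without roles or settings; the strand setting of the counting is not stated. The authors deposited log2 CPM per ovary for 16454 genes, with a surrogate variable removed per the table's name, together with columns of log2 fold change, raw p-value and adjusted p from their comparison. The within-lineage deviations filled 3 of 4 possible directions. Read counts were not used, so depth is unknown and no counting interval is given.

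The lineages were compared with limma 3.58.1 in R 4.3.3 (moderated, two-sided, mean-variance trend) on the deposited values, over all genes and with no further filter. The removed direction was a covariate, which leaves 3 residual degrees of freedom, with p-values adjusted by Benjamini-Hochberg over all genes and called under 0.05. The fit was checked on simulated data. The genes and the lists were chosen with earlier results of these data known. Named from the lists were the 3 smallest p and 2 highest levels of each pathway list and the 2 highest of the marker lists used; some genes that this rule names are not reported here. Alternatives were 4 degrees of freedom, a replicate block, quantile normalization, median centring, log2(CPM + 1), a minimum mean log2 CPM of 1, no trend, DEHP replicates 1 and 3 averaged, and leaving out each ovary. Positions and promoters are RefSeq's for GRCm38.p6, with a promoter row for 8 of the 10 names, and exon lengths and shared 31-base words come from GENCODE's annotation of that build (lengths for 94.08% of genes).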

Additional observations from a re-analysis of the deposited data

How the results depend on the processing

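The count of genes called over all genes was 7. It became 20 with 4 residual degrees of freedom, 3 with quantile normalization, 3 with median centring and 1 with no mean-variance trend, and it ranged from 2 to 35 when 1 ovary was left out, highest without DEHP replicate 2 and lowest without control replicate 3 (4 without control replicate 2). Fits without 1 ovary took group alone as a term, so they overstate the degrees of freedom where the removed direction remains. Of the 8 measured genes 0 were called; 2 were with 4 degrees of freedom, and 0 to 1 when an ovary was left out, the 1 being Pon1 without control replicate 1. Of the pathway genes 0 were called, and the range without 1 ovary was 0 to 0. The replicate number as a block gave 6 genes and 0 of the 8. Same-numbered ovaries had deviations that correlated at -0.327, -0.003 and -0.198, and differently numbered ones at -0.211 to 0.444. These deviations lack the direction the authors removed, so they cannot settle whether the numbers pair the ovaries. Apoc1 (1.52 to 2.05), Pon1 (1.10 to 3.65), Abca1 (-0.60 to -0.36) and Apoe (0.16 to 0.38) kept their sign under every setting run; Pon1 left the table under the minimum mean level. Pon2, Pon3, Apoa1 and Scarb1 did not. Low levels, of Pon1 above all, limit the size of a fold.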

Other observations

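The spread of these genes was unequal between the lineages. All 8 had a smaller SD of log2 CPM in the DEHP lineage than in the control lineage, as had 69.6% of all genes. Pon3, a paraoxonase of HDL, had an SD of 0.012 in the DEHP lineage and 0.237 in the control lineage. Apoa1 had 0.081 in the DEHP lineage and 0.699 in the control lineage, and Scarb1 0.096 and 0.443 in the same order. The median over all genes was 0.096 in the DEHP lineage and 0.149 in the control lineage. The values hold no variation along the direction the authors removed, which weighed mostly on the DEHP ovaries. Its removal took spread mainly out of the DEHP lineage, so these SDs are not on equal terms between the lineages. They do not describe how the ovaries spread before removal. The size of its part was not tested.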
